A study of Mus musculus with 6 samples.

Results

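The genes described here are the 10 that encode the NF-κB subunits and the IκB inhibitors. They were taken by symbol from a list defined by what the genes encode, and no measured value entered that rule. Earlier results of these data were known when the list was chosen. The members are 10 of 26128 genes in the count table. The subunits were Rel, Rela, Relb, Nfkb1 and Nfkb2, and the inhibitors were Nfkbia, Nfkbib, Nfkbie, Nfkbid and Nfkbiz. All 10 were found and all 10 passed the filter on low counts, after which 14671 genes were tested. RNA was sequenced from mouse double negative T (DNT) cells, which carry CD3 but neither CD4, CD8 nor NK1.1 at the surface. The cells came from adult wild-type C57BL/6 mice, for which the labels give spleen as the tissue and the methods give spleens and lymph nodes. They were made in culture from CD4+CD25- T cells with mature dendritic cells of the DBA/2 strain and IL-2, and were then sorted. All libraries came from sorted DNT cells that were stimulated by anti-CD3/CD28 beads for 48 h, so the controls were activated T cells and not resting ones. The 3 control libraries had no added IL-33 and the 3 IL-33 libraries had IL-33 at 50 ng/ml. Neither the labels nor the methods say whether the 3 libraries of a group came from separate mice or cultures, so the p-values measure the spread between these libraries, which may be technical.

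NF-κB transcription factors are dimers of the Rel family subunits. Rel (c-Rel), Rela and Relb carry transactivation domains, whereas Nfkb1 and Nfkb2 encode precursors that are cut to shorter DNA-binding subunits. The classical inhibitors IκBα, IκBβ and IκBε, from Nfkbia, Nfkbib and Nfkbie, hold dimers in the cytoplasm until IκB kinase marks them for degradation. The nuclear inhibitors IκBNS and IκBζ, from Nfkbid and Nfkbiz, bind dimers in the nucleus and can repress or help transcription. IL-33 is a cytokine of the IL-1 family whose receptor, ST2, signals to NF-κB, and several genes of this system are themselves NF-κB targets. In T cells the same factors are also engaged by the T cell receptor and CD28.

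With IL-33, transcripts of 6 of the 10 genes were lower, 1 was higher and 3 did not pass the test. Rel, Relb, Nfkb2, Nfkbia, Nfkbie and Nfkbid fell, Nfkbiz rose, and Rela, Nfkb1 and Nfkbib were not called. The largest of the 10 changes was that of Nfkbid, which fell by 39.6%, and it was the single member that passed both the adjusted p of 0.05 and a fold change of 1.5. Of all 14671 genes tested, 27.5% passed the adjusted p, with 13.9% lower and 13.6% higher, so the 6 lower members stand against 13.9%. At both thresholds 4.87% of genes passed, and 2.39% were lower, so 1 of 10 members is close to the background. The background depends on the level of the genes. Among the 5934 genes with a mean of at least 30 normalized CPM (read counts scaled to a common library size), a level that all 10 members reach and that was chosen after the values had been seen, 42.1% passed the adjusted p, 21% were lower, and 1.65% passed both thresholds. The values of the control and IL-33 libraries did not overlap in 8 of the 10 members, beside 38.9% of all genes tested. The 8 include Rela, which was not called, and this share was not computed for genes of at least 30 CPM. Adjusted p-values come from the quasi-likelihood test of edgeR, corrected by the Benjamini-Hochberg method across the 14671 genes. In bulk RNA, fewer cells of a kind and less RNA per cell cannot be told apart, and transcript levels say nothing of protein or of its place in the cell.

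The libraries held 20256342 to 22336050 counts each, and a member had between 597 and 12797 counts in a library. The T cell markers CD3 and Thy1 were well covered, and the 8 T cell markers summed to 2990 to 3110 CPM in control and 3090 to 3200 CPM in IL-33 libraries. Of the 8, 2 were higher, 3 were lower and 3 did not pass the adjusted p, and none passed both thresholds. Cd5, the lowest of them, had 93 to 153 counts in a library. Cd4 had 5 to 22 counts in a library, whereas Cd8a had 8235 to 11732 counts although the sort removed cells with surface CD8. Cd8b1, the partner chain of Cd8a, had 178 to 379 counts and Klrb1c, which encodes NK1.1, had 513 to 741. These genes differed between the groups. Cd8a fell from 545 to 400.2 CPM (edgeR adjusted p = 2.38e-26), Klrb1c from 33.5 to 25.6 CPM (edgeR adjusted p = 7.14e-06) and Cd4 from 0.934 to 0.373 CPM (edgeR adjusted p = 0.023), while Cd8b1 rose from 9.68 to 16.3 CPM (edgeR adjusted p = 6.16e-08). The 4 genes summed to 575 to 608 CPM in control and 436 to 453 CPM in IL-33 libraries. The 10 dendritic and myeloid markers summed to 67.4 to 71.3 CPM in control and 41.9 to 47.3 CPM in IL-33 libraries. Most of that sum was Itgax, at 54.6 CPM in control and 25.98 CPM in IL-33 libraries, which fell. Itgam rose, from 2.61 to 4.83 CPM (log2 fold change 0.88, edgeR adjusted p = 0.00013), and Xcr1, at 11.5 and 12.4 CPM, did not pass the test (edgeR adjusted p = 0.52). Flt3, Siglech, Lyz2, Csf1r and Adgre1 had at most 13 counts in a library. No counts for Cd209a and Clec9a were used here. B cell markers summed to 15.4 to 16.7 CPM in control and 16.4 to 21.6 CPM in IL-33 libraries, mast cell and basophil markers to 14.9 to 19.9 and 10.2 to 13.6 CPM, and NK cell markers to 405 to 408 and 373 to 393 CPM. Most of the NK sum was Eomes, at 373 CPM in control and 358 CPM in IL-33 libraries. Ncr1 and Klra8, also on that list, had at most 5 and 6 counts in a library. The part of cells marked by these lists in the members' values was not tested.

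The promoters of the members are shown because the 5 genes that fell and had a promoter window hold the same short element there. The search was added after the values had been seen, so its agreement with the direction of change is a description and was not tested. Promoter windows of 300 bases, from 250 bases before to 50 bases after a transcript start, were taken from RefSeq (GRCm38.p6). They matched 7 of the 10 members with 11 windows. There was none for Relb, which fell, Nfkb1, which was not called, and Nfkbiz, which rose, so these genes were not searched. The windows were searched on both strands for the κB consensus, the DNA element that NF-κB dimers bind. It was written as GGGRNWYYCC, where R is A or G, N any base, W A or T, and Y C or T. The consensus was found in windows of 5 of the 7 members, which are Rel, Nfkb2, Nfkbia, Nfkbie and Nfkbid, and all 5 were lower with IL-33. The windows of Rela and Nfkbib held no match, and these genes were not called. Over all 32851 windows 4.51% held the consensus, and 5.14% of 27025 genes had it in at least 1 window. These shares are not matched to the members, of which 7 had 11 windows. Rel is shown on the minus strand (chr11:23770920-23771219), Nfkb2 on the plus strand (chr19:46304487-46304786), Nfkbia on the minus strand (chr12:55492598-55492897), Nfkbie on the plus strand (chr17:45555450-45555749) and Nfkbid on the plus strand (chr7:30422156-30422455). Rela, on the plus strand (chr19:5637291-5637590), is given for comparison. The sequences run 5′ to 3′ with the κB consensus in capitals.
Rel: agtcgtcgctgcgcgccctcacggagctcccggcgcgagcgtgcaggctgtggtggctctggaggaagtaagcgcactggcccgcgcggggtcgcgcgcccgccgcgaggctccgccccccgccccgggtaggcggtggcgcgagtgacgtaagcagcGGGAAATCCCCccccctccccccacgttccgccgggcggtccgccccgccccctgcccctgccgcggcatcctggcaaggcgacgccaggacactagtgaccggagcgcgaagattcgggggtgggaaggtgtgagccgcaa
Nfkb2: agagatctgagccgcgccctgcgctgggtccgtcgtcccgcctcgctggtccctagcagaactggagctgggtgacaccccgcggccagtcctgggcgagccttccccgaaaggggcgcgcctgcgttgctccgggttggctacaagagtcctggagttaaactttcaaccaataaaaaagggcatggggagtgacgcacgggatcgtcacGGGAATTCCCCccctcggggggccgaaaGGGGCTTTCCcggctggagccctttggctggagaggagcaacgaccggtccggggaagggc
Nfkbia: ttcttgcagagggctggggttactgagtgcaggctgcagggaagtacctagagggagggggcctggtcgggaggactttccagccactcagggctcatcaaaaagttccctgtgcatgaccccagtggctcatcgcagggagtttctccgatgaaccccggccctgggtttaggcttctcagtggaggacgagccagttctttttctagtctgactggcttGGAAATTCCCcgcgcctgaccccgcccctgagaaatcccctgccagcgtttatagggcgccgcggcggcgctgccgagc
Nfkbie: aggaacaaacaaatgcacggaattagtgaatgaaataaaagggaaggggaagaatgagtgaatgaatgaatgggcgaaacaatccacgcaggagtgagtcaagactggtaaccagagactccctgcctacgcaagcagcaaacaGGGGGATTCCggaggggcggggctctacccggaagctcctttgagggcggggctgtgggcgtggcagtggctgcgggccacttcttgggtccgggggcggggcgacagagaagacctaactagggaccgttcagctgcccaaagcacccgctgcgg
Nfkbid: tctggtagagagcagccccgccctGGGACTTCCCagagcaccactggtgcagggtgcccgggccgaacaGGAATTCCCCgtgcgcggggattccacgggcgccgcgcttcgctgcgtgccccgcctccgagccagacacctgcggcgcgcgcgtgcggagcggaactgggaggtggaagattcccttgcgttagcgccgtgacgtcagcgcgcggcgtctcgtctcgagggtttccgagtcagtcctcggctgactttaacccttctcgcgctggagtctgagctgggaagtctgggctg
Rela: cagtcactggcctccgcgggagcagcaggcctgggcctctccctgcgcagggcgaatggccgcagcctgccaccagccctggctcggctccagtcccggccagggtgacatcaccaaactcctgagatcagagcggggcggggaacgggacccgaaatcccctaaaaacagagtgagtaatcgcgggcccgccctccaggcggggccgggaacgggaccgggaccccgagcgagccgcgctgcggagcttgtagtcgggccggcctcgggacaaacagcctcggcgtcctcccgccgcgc

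In Nfkbia the match began 29 bases before the start. In Nfkb2 the window shown held 3 matches, of which the upstream pair overlaps, and they began 39, 38 and 11 bases before the start. Its other 2 windows, which overlap each other, held 2 matches and 1 match, with 1 of these in both. In Rel an overlapping pair began 92 and 91 bases before the start, and in Nfkbie the match began 106 bases before it. The Nfkbid window held 2 separate matches, 226 and 181 bases before the start, while its other 2 windows held none. Over all genes the consensus went with both directions. Among the 631 genes tested whose windows held it, 19.5% were lower and 18.7% were higher with IL-33, beside 15.3% and 14.9% of the 9437 genes whose windows did not. At a level of at least 30 CPM, 26.4% were lower and 22.4% higher with the consensus, and 20.9% and 20.5% without it. A match is a run of letters and not a measured binding site.

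Rel, Rela and Relb encode the subunits that can activate transcription by themselves. Gene positions are from GENCODE M21 (GRCm38). Rel (ENSMUSG00000020275, chr11:23736847-23770970, minus strand) encodes c-Rel, the subunit best known for its role in activated lymphocytes. It measured 135, 132 and 135 CPM in the control libraries and 105, 109 and 104 CPM in the IL-33 libraries. Every IL-33 library lay below every control library, and the gap between the groups was larger than the spread within either. Rel fell by 21.1%, a log2 fold change of -0.34 ± 0.04 (SE, n = 3 per group, edgeR adjusted p = 2.48e-12).

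Relb (ENSMUSG00000002983, chr7:19606217-19629438, minus strand) encodes the partner of the Nfkb2 product in the noncanonical pathway. It measured 54.0, 59.3 and 61.5 CPM in control libraries and 46.7, 41.6 and 43.9 CPM with IL-33. The lowest control was above the highest IL-33 library. Relb fell by 24.3%, the largest decrease among the subunits, and by 0.40 on the log2 scale (SE 0.06, 95% interval -0.51 to -0.29, edgeR adjusted p = 4.27e-09).

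Rela (ENSMUSG00000024927, chr19:5637483-5648130, plus strand) encodes p65, the main activating subunit of the canonical pathway, and did not pass the test. It measured 132.2, 127.6 and 131.6 CPM in control and 126.1, 127.5 and 119.3 CPM in IL-33 libraries. The groups were separated by no more than the gap between 127.6 and 127.5 CPM. Its log2 fold change was -0.07, with a 95% interval from -0.15 to 0.01 (edgeR adjusted p = 0.18), so a decrease of the size seen in Rel lay outside the interval and a smaller one did not.

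Nfkb1 (ENSMUSG00000028163, chr3:135584655-135691547, minus strand) encodes p105, the precursor of p50. It had the most counts of the 10 genes, with 568, 557 and 550 CPM in control libraries and 556, 556 and 576 CPM in IL-33 libraries. The groups overlapped. The log2 fold change was 0.01 with a 95% interval from -0.04 to 0.07 (edgeR adjusted p = 0.80), the narrowest interval of the 10.

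Nfkb2 (ENSMUSG00000025225, chr19:46304320-46312385, plus strand) encodes p100, which is both the precursor of p52 and an inhibitor of dimers that it binds. It measured 180, 177 and 178 CPM in control and 165, 145 and 158 CPM in IL-33 libraries. The 3 control values lay close together and the IL-33 values were more spread, with replicate 2 the lowest. Nfkb2 fell by 12.7%, a log2 fold change of -0.20 ± 0.04 (SE, n = 3 per group, edgeR adjusted p = 1.31e-05). AC114539.1, a noncoding gene on the opposite strand, shares 11.6% of the exon bases of Nfkb2 and is not listed in the counts. Psd, also on the opposite strand, shares 6.52% and had 426 to 510 counts in a library, against 3038 to 3903 for Nfkb2. The log2 fold change of Psd was -0.11 (edgeR adjusted p = 0.35), and without the strand its reads and those of Nfkb2 in the shared bases cannot be told apart.

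**Figure D1:**
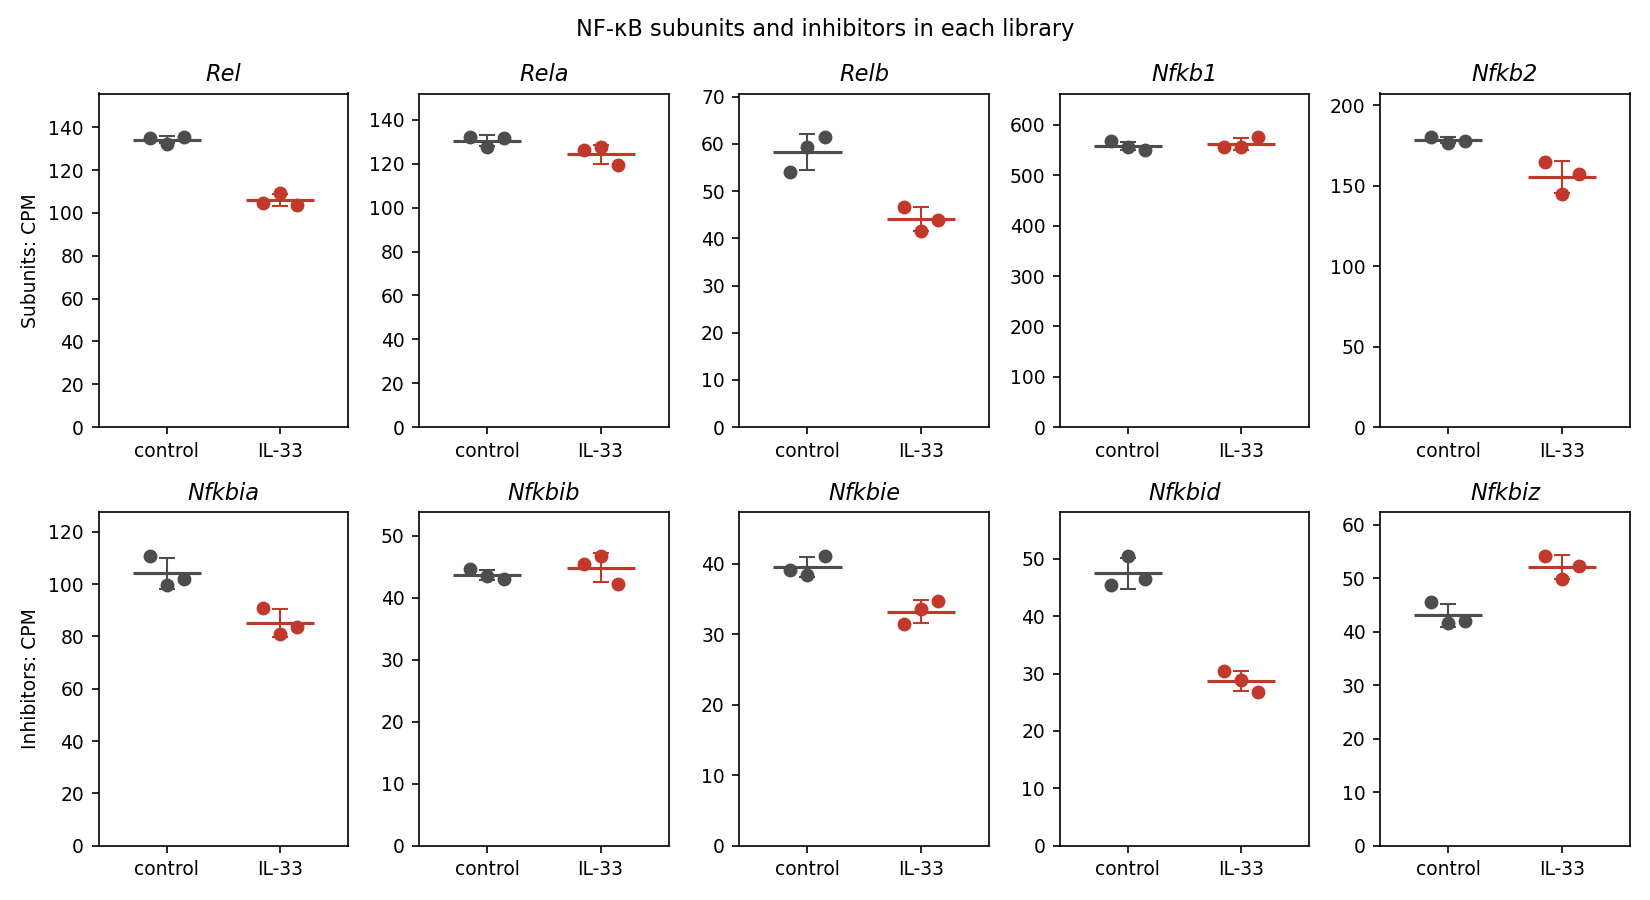
Normalized level (CPM, linear axis from 0) of the 5 subunits (top) and 5 inhibitors (bottom) in each of the 3 control and 3 IL-33 libraries, with points for libraries, horizontal lines for group means and bars for SD. Rel, Relb, Nfkb2, Nfkbia, Nfkbie and Nfkbid are lower in every IL-33 library than in any control, Nfkbiz is higher, and Nfkb1 and Nfkbib overlap.

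Nfkbia, Nfkbib and Nfkbie encode the classical cytoplasmic inhibitors. Nfkbia (ENSMUSG00000021025, chr12:55489410-55492647, minus strand) encodes IκBα, the inhibitor that is degraded and made anew most rapidly when NF-κB is activated. It measured 111, 99.6 and 102 CPM in control libraries and 90.9, 80.7 and 83.8 CPM with IL-33. The groups did not overlap. Nfkbia fell by 18.3%, a log2 fold change of -0.29 ± 0.04 (SE, n = 3 per group, edgeR adjusted p = 5.11e-08).

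Nfkbie (ENSMUSG00000023947, chr17:45555703-45563169, plus strand) encodes IκBε, another inhibitor that NF-κB induces. It had the lowest mean of the members in control libraries, at 39.1, 38.4 and 41.2 CPM in control and 31.4, 33.5 and 34.7 CPM in IL-33 libraries. All IL-33 values were below the controls. It fell by 16.1%, and its log2 fold change was -0.25 with a 95% interval from -0.38 to -0.12 (edgeR adjusted p = 0.0013).

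Nfkbib (ENSMUSG00000030595, chr7:28758251-28767512, minus strand) encodes IκBβ, which is degraded more slowly. It measured 44.7, 43.5 and 43.1 CPM in control and 45.5, 46.8 and 42.3 CPM in IL-33 libraries, and the groups overlapped. The log2 fold change was 0.04 with a 95% interval from -0.08 to 0.15 (edgeR adjusted p = 0.70). Sirt2, on the opposite strand, shares 1.94% of the exon bases of Nfkbib and had 2524 to 2778 counts in a library, while Ccer2 shares 14.5% and had at most 4 counts.

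The nuclear inhibitors moved in opposite directions. Nfkbid (ENSMUSG00000036931, chr7:30421732-30428746, plus strand) encodes IκBNS, which acts on a subset of NF-κB genes and is known in T cells for a role in the expression of IL-2 and Foxp3. It measured 45.5, 50.6 and 46.5 CPM in control libraries and 30.4, 28.8 and 26.9 CPM with IL-33. The highest IL-33 value was well below the lowest control. Nfkbid fell by 39.6%, a log2 fold change of -0.73 ± 0.07 (SE, n = 3 per group, 95% interval -0.86 to -0.60, edgeR adjusted p = 2.00e-17). A test against the fold change of 1.5 itself, in place of 0, gave an adjusted p of 0.28 for Nfkbid with edgeR, so the call at both thresholds does not hold as a statement that the change exceeds 1.5-fold.

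Nfkbiz (ENSMUSG00000035356, chr16:55811375-55838899, minus strand) encodes IκBζ, which is strongly induced by IL-1 family receptors in many cells and helps transcription of selected targets such as Il6. It measured 45.6, 41.6 and 42.0 CPM in control and 54.3, 49.8 and 52.4 CPM in IL-33 libraries. It was the single member that rose, by 21.1%, and the groups did not overlap. Its log2 fold change was 0.28 ± 0.06 (SE, n = 3 per group, edgeR adjusted p = 6.16e-05).

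**Figure D2:**
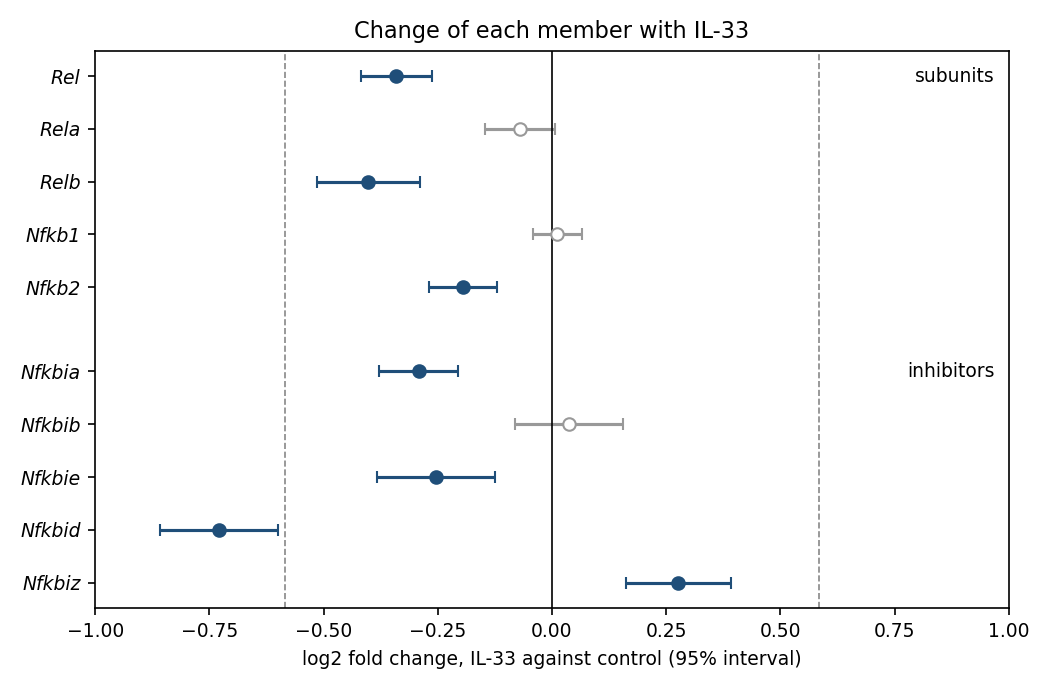
Log2 fold change of IL-33 against control for each member, with its 95% interval from edgeR. Filled points passed an adjusted p of 0.05, open points did not, and dashed lines mark a fold change of 1.5. Nfkbid, at -0.73, is the one member past the dashed line, Nfkbiz is the one called gene above 0, and the intervals of Rela, Nfkb1 and Nfkbib include 0.

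Levels of different genes were compared per length, as CPM per kb of exon with all exons of a gene merged. In control libraries Nfkbia had the highest level, 64.7 ± 3.67 CPM per kb (SD, n = 3), followed by Nfkb1 at 46.3, Rela at 42.5 and Nfkb2 at 38.9. Nfkbid at 20.3 and Nfkbib at 20.2 came next and their libraries overlapped. Rel at 18.0, Relb at 15, Nfkbie at 12.99 and Nfkbiz at 8.58 CPM per kb followed. Nfkbid and Nfkbib were the single pair of neighbours in this order whose control ranges overlapped, and the highest and lowest genes differed 7.54-fold.

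With IL-33 the upper part of the order was the same and the lower part closed up. Nfkbia stood at 52.9 CPM per kb, Nfkb1 at 46.6, Rela at 40.5, Nfkb2 at 34.0, Nfkbib at 20.7 and Rel at 14.2. Nfkbid moved from rank 5 to rank 7, at 12.2 CPM per kb. Relb at 11.4, Nfkbie at 10.9 and Nfkbiz at 10.4 followed, and each pair of neighbours from Nfkbid to Nfkbiz overlapped in the IL-33 libraries. The order depends on the length used. The merged exons of Nfkb1 span 12061 bases, whereas its longest transcript has 4149, and with the longest transcript Nfkb1 ranked above Nfkbia in control libraries, at 134.5 against 66.0 CPM per kb. In IL-33 libraries that length also put Nfkbiz, at 12.67, above Nfkbie, at 11.04 CPM per kb.

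Levels of the members were also set against each other as ratios, without a test. The Nfkb2 product p100 is also an inhibitor and the Nfkbiz product can help transcription. The ratio of inhibitors to subunits therefore does not measure inhibition against activation. The 5 inhibitors summed to 0.789 ± 0.019 of the 5 subunits in control libraries and to 0.730 ± 0.016 in IL-33 libraries (SD, n = 3 per group). With the longest transcripts this ratio was 0.507 in control and 0.455 in IL-33 libraries, again without overlap. Rel over Rela was 0.420, 0.426 and 0.423 in control and 0.342, 0.352 and 0.358 in IL-33 libraries. Nfkb2 over Nfkb1 was 0.841 ± 0.009 in control and 0.728 ± 0.048 with IL-33, values that depend on the lengths used. With the longest transcripts, Nfkb2 had 46.4 and Nfkb1 134.5 CPM per kb in control, and 40.5 and 135.6 with IL-33. Nfkbid over Nfkbiz, the ratio of the nuclear inhibitors, was 2.135, 2.602 and 2.369 in control and 1.199, 1.237 and 1.097 in IL-33 libraries. With merged exons as the length, the share of Rela among the subunits was 26.4% ± 0.30 in control and 27.6% ± 1.08 with IL-33. It overlapped between the groups.

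**Figure D3:**
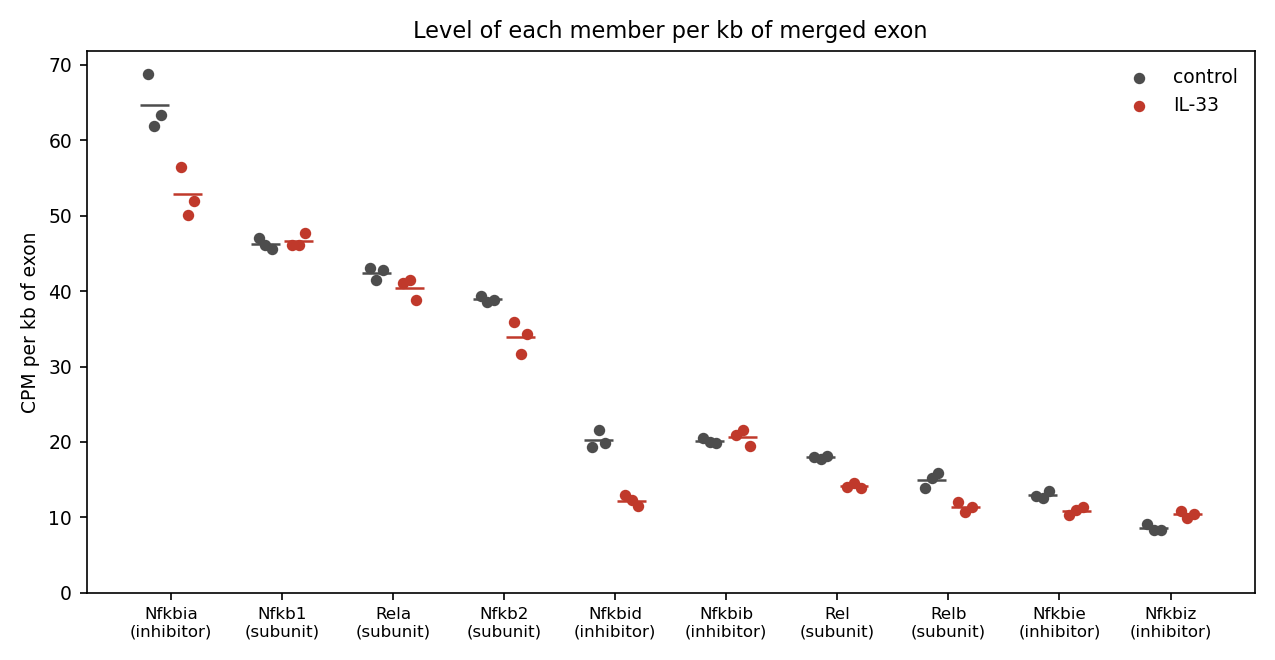
Level of each member in CPM per kb of merged exon (linear axis from 0), ordered by the control mean, with a point for each library and a line for each group mean. Nfkbia is highest in both groups (64.7 and 52.9 CPM per kb), and Nfkbid, at 20.3 in control, lies at 12.2 with IL-33, next to Relb and Nfkbie.

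Other genes of the pathway were read from lists by role. Of 11 activating kinases and their adaptors, 4 were lower and none was higher at the adjusted p, none passed both thresholds, and their median log2 fold change was -0.06. The share called, 36.4%, lay between the 27.5% of all genes and the 42.1% of genes of at least 30 CPM, a level that all 11 reached. Ikbke, an IκB kinase relative that NF-κB can induce, measured 174, 173 and 168 CPM in control and 146, 145 and 143 CPM with IL-33. Its log2 fold change was -0.25 (edgeR adjusted p = 1.32e-08). Tab2, an adaptor of the TAK1 kinase and the most counted gene of the list, had a log2 fold change of -0.01 (edgeR adjusted p = 0.85). Map3k8 (TPL2), a kinase that p105 binds and holds inactive, had a log2 fold change of -0.27 (edgeR adjusted p = 2.61e-07) and was named after its value had been seen. The other genes of this list that were lower, Ikbkb and Tbk1, had log2 fold changes of -0.10 and -0.11 (edgeR adjusted p = 0.041 and 0.032), and each call was lost with DESeq2 and in 5 of the 6 fits without 1 library (all except those without control replicate 3 for Ikbkb and control replicate 1 for Tbk1).

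All 5 genes of the noncanonical arm, which controls the cutting of the Nfkb2 product p100, passed the adjusted p, 4 as lower and 1 as higher, and none passed both thresholds. This stands beside 27.5% of all genes and 42.1% of genes of at least 30 CPM, a level that all 5 reached. Map3k14 encodes NIK, the kinase that starts this arm. It measured 59.9, 59.5 and 54.8 CPM in control libraries and 44.6, 46.9 and 43.3 CPM with IL-33. Its log2 fold change was -0.37 ± 0.06 (SE, n = 3 per group, edgeR adjusted p = 2.96e-08). Traf2 and Traf3, adaptors that hold NIK low, had log2 fold changes of -0.23 and -0.21 (edgeR adjusted p = 0.00059 and 2.29e-05). Map3k14, Traf2 and Traf3 were named after their values had been seen. The ubiquitin ligases of the same complex differed in sign. Birc2 (cIAP1) measured 136, 136 and 136 CPM in control and 163, 170 and 165 CPM with IL-33, a log2 fold change of 0.29 (edgeR adjusted p = 2.42e-10). Birc3 (cIAP2) had a log2 fold change of -0.10 (edgeR adjusted p = 0.035), a call that DESeq2 did not make (adjusted p = 0.077). The call was also lost without the filter on low counts (edgeR adjusted p = 0.062). Leaving out any library other than control replicate 3 lost it too (edgeR adjusted p from 0.051 to 0.15).

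Few of the remaining regulators passed the test. Of 15 ubiquitin regulators, 1 was higher, 1 was lower and 13 did not pass, a share of 13.3% called, beside 27.5% of all genes. Tnfaip3 encodes A20, the deubiquitinase that closes NF-κB signalling and a standard NF-κB target. It measured 349, 344 and 343 CPM in control and 345, 339 and 360 CPM in IL-33 libraries, a log2 fold change of 0.01 with a 95% interval from -0.05 to 0.07 (edgeR adjusted p = 0.81). N4bp1, another negative regulator, had a log2 fold change of 0.02 (edgeR adjusted p = 0.65). Of 14 genes for IκB turnover and nuclear cofactors, 2 were higher, none was lower and 12 did not pass. The share called was 14.3%, also beside 27.5% of all genes. Pdlim2, a ligase that promotes the degradation of nuclear p65, measured 103, 103 and 101 CPM in control and 122, 113 and 115 CPM with IL-33, a log2 fold change of 0.19 (edgeR adjusted p = 0.00010). Fbxw11, a subunit of a ligase that marks IκB for degradation, had a log2 fold change of 0.07 (edgeR adjusted p = 0.18).

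Known NF-κB target genes moved in both directions. Of 48 genes on the list, 42 were tested, of which 16 were higher, 10 were lower and 16 did not pass the adjusted p. The share called was 61.9%, beside 27.5% of all genes and 42.1% of genes of at least 30 CPM, a level that not all of the list reached. The list had a median log2 fold change of -0.02, beside -0.00063 over all genes tested. Past both thresholds, 4 were higher and 4 were lower, where 4.87% of all genes passed in either direction. Of the higher genes, Vim, which encodes the intermediate filament protein vimentin, measured 311, 344 and 346 CPM in control and 540, 560 and 539 CPM with IL-33, a log2 fold change of 0.71 (edgeR adjusted p = 1.69e-28). Il6, the cytokine, measured 5.61, 5.81 and 4.43 CPM in control and 11.6, 10.2 and 10.9 CPM with IL-33, a log2 fold change of 1.05 (edgeR adjusted p = 3.35e-10). Ccr7, the lymph node homing receptor, measured 3.72, 4.43 and 4.20 CPM in control and 9.21, 8.35 and 9.59 CPM with IL-33, a log2 fold change of 1.14 (edgeR adjusted p = 3.94e-10). In these 3 genes every IL-33 library lay above every control. Nod2, a sensor of bacterial cell wall, had 0.867 to 2.34 CPM and a log2 fold change of 0.73 (edgeR adjusted p = 0.045), a call that was lost with DESeq2 (adjusted p = 0.14) and without control replicates 2 or 3 or IL-33 replicates 1 or 2 (edgeR adjusted p from 0.072 to 0.24).

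Of the target genes that were lower, Tnf measured 16.4, 17.4 and 20.3 CPM in control and 12.7, 10.1 and 11.6 CPM with IL-33. Its log2 fold change was -0.65 ± 0.11 (SE, n = 3 per group, edgeR adjusted p = 1.98e-07), and was under a fold change of 1.5 without control replicate 3 (-0.56) or IL-33 replicate 2 (-0.57), with the adjusted p still under 0.05. Plau, which encodes urokinase, measured 2.36, 2.90 and 3.38 CPM in control and 1.26, 1.62 and 1.49 CPM with IL-33, a log2 fold change of -0.98 (edgeR adjusted p = 0.0013). The chemokine gene Ccl4 measured 39.3, 54.1 and 56.0 CPM in control and 32.9, 27.9 and 26.2 CPM with IL-33, a log2 fold change of -0.78 (edgeR adjusted p = 0.044), which was lost when any library other than control replicate 1 was left out (adjusted p from 0.050 to 0.15). Cd83, an activation marker, had 1.76 to 3.29 CPM and a log2 fold change of -0.69 (edgeR adjusted p = 0.018), lost with DESeq2 (adjusted p = 0.066), without control replicate 3 (edgeR adjusted p = 0.077) and without IL-33 replicate 3 (edgeR adjusted p = 0.063). The most counted targets were B2m, of the class I antigen complex, with a log2 fold change of -0.19 (edgeR adjusted p = 5.14e-14), and Tnfrsf9 (4-1BB), a costimulatory receptor, with 0.57 (edgeR adjusted p = 0.0057).

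**Figure D4:**
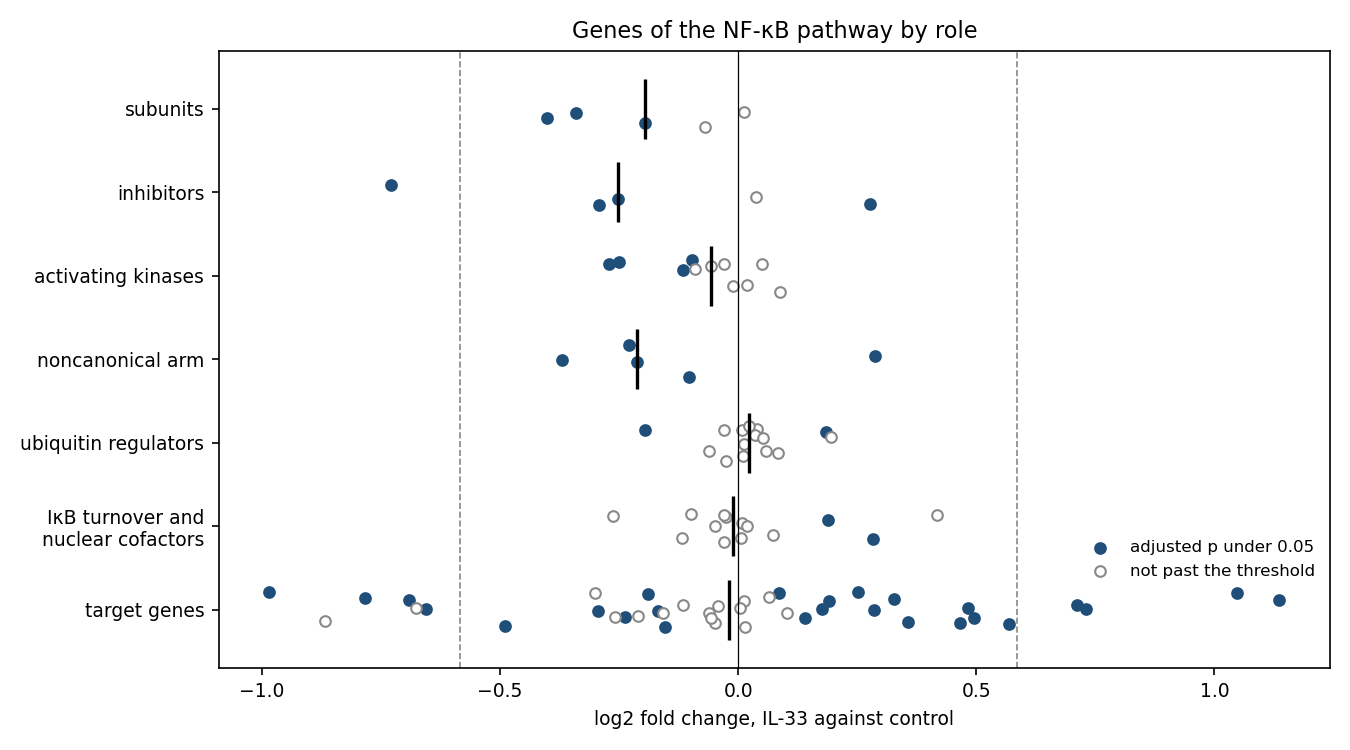
Log2 fold change of IL-33 against control for the tested genes of 7 lists, by role, with filled points for an adjusted p under 0.05, open points for the rest, a black line for each list's median and dashed lines at a fold change of 1.5. All genes outside the dashed lines that were called are Nfkbid and target genes, and the median is lowest for the inhibitors (-0.25).

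The genes whose pattern over the 6 libraries was most like that of Nfkbid were Heatr1 and Dennd4b, with Pearson's r on log2 CPM of 0.9987 and 0.997 among 8838 genes with a mean of at least 10 CPM. Heatr1, which encodes a factor of ribosomal RNA synthesis, measured 74.6 CPM in control and 61.0 CPM with IL-33 on average, a log2 fold change of -0.29. Dennd4b, which encodes a Rab exchange factor, measured 114 and 95.4 CPM. These values share the libraries and their depth, and 463 of the 8838 genes had r above 0.95. A gene that differs in the same direction by much more than its spread within the groups reaches a high r, whatever its other behaviour. Both genes are given as a description only.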

How the data were processed

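RNA from 3 control and 3 IL-33 libraries was analysed, and libraries were grouped by the titles in their labels. The authors deposited raw read counts per gene (Ensembl identifiers) without normalization, and the counts were used as deposited. The submitters' processing notes name Bowtie 0.12.2 and the mm8 build. The program that counted reads, and whether it used the strand, is not given in the sources used here, and the labels and the methods name different library kits. Of 26128 identifiers, 26086 matched GENCODE M21 (GRCm38), from which symbols and exon lengths were taken, so lengths may differ from those used in counting. A column of mean values and the columns of the authors' own comparison (fold changes and p-values) were not used.

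Genes were filtered with filterByExpr (minimum count 10, minimum total 15), which kept 14671 genes and removed 0.11% of counts. Counts were scaled by TMM and tested with edgeR 4.0.16 (R 4.3.3), robust quasi-likelihood, two-sided, and p-values were adjusted by the Benjamini-Hochberg method across these genes. The fit used all 6 libraries without covariates. The common biological coefficient of variation was 0.0468. Calls used an adjusted p of 0.05, alone or with a fold change of 1.5 (0.585 on the log2 scale). An exact permutation test of 3 against 3 cannot go below p = 0.1, so single genes were tested in the fit only. CPM are TMM-scaled. DESeq2 1.42.0, limma-voom (limma 3.58.1), other filters and scaling, a replicate block, a test against the fold change threshold, and fits without each library were tried as alternatives. Scripts were tested on simulated data.

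The members, lists and tests were chosen with earlier results of these data known. The genes named are all members, the genes of each list past both thresholds, the 2 with the highest mean CPM of each list, the 3 most like a member past both thresholds, and genes that overlap a member's exons. Exceptions are named as such. Some genes that this rule names, with 1 list of pathway genes, are not reported here.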

Additional observations from a re-analysis of the deposited data

How the results depend on the processing

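Each of the 10 members kept its direction where called and its side of the adjusted p of 0.05 in all 12 alternatives other than the test against the fold change threshold, which makes 120 fits. These were DESeq2, limma-voom, the size factors of DESeq2, no filter, a stricter filter, the replicate block and the 6 fits without 1 library. The uncalled estimate of Nfkb1 changed sign without IL-33 replicate 3. When the fold change of 1.5 was the null of the test, 113 genes were called in place of 714, 0 members passed in place of 1 (Nfkbid), and 3 genes of the pathway lists (Vim, Il6 and Ccr7) in place of 8; fewer genes pass this test by its construction. Leaving out 1 library gave 5 to 8 pathway genes past both thresholds, with 5 without control replicate 3. Of 1102 such comparisons for 92 pathway genes, 68 lost a call, 6 gained one and 0 reversed one. With the longest transcript as length, control levels were 48.0 CPM per kb for Rela, 17.8 for Relb, 134.5 for Nfkb1, 46.4 for Nfkb2, 21.2 for Nfkbib, 23.3 for Nfkbid and 10.5 for Nfkbiz. Libraries with the same replicate number did not deviate together (r of 0.0471, -0.0859 and 0.0426), and the replicate block gave 666 genes past both thresholds, 3798 at the adjusted p and 7 members. Each member had 597 or more counts per library, whereas Nod2, Plau and Cd83 rest on fewer than 100 counts per library.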
